A study of Mus musculus with 2 samples.

Results

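The cells described here are the globin-rich red cell precursors of the mouse yolk sac, taken from a droplet single-cell RNA sequencing study of early blood and vessel development. They were chosen from the yolk sac library by the RNA of Hbb-y, an embryonic beta-type globin. A barcode counted as a cell when it held at least 6537 UMIs (unique molecular identifiers, each tagging 1 captured RNA molecule) and at most 10% of UMIs from mitochondrial genes. A cell was a member when Hbb-y reached at least 20000 CPM (UMIs of a gene scaled to a cell total of 1000000). Of 775 yolk sac cells 152 were members (19.6%, exact Clopper-Pearson 95% interval 16.9 to 22.6). They held 23.0% of the UMIs and 99.3% of the globin UMIs of the yolk sac cells, and they were 152 of the 2653 cells of the whole series.

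The yolk sac library came from C57BL/6 mice, from equal numbers of E9.5 and E10.5 conceptuses whose yolk sacs were pooled, digested with 0.25% collagenase and frozen. After thawing, dead cells and about 70% of the cells positive for Ter119, a surface antigen of red cells, were sorted away, so the share of members is not their share in the tissue, and the embryonic day of a cell is not recorded. The other library of the series held 1878 cells from C57BL/6 embryonic stem cells differentiated as embryoid bodies for 4 days under conditions favouring hemangiogenic mesoderm. None of those 1878 cells passed the Hbb-y limit, and together they held 0 Hbb-y UMIs and 17 globin UMIs. With 1 library of each kind there were no replicates. No test was therefore made, and the intervals given cover counting error only, not variation between yolk sacs.

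Primitive erythropoiesis is the first wave of red cell production. It starts in blood islands of the yolk sac, and its large precursors enter the circulation with a nucleus and mature there as a cohort. Primitive red cells make the embryonic globins Hbb-y, Hbb-bh1 and Hba-x together with adult-type alpha globin. Later definitive red cells, from yolk sac progenitors and then the fetal liver, make adult-type globins under factors such as Myb and Bcl11a. In both waves Gata1 and Klf1 drive the erythroid genes, through GATA and CACCC motifs in promoters and enhancers, and heme is made in mitochondria from glycine and succinyl-CoA, starting with Alas2.

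The genes that carry the description lie in 2 globin clusters and on the X chromosome (GRCm38, GENCODE M21, all protein-coding). In the beta cluster on the minus strand, Hbb-y lies at chr7:103851749-103853216, Hbb-bh1 at chr7:103841637-103843164, Hbb-bs at chr7:103826534-103828096 and Hbb-bt at chr7:103812524-103813996. In the alpha cluster on the plus strand, Hba-x lies at chr11:32276400-32278116, Hba-a1 at chr11:32283511-32284465 and Hba-a2 at chr11:32296489-32297298. Alas2 lies at chrX:150547375-150570638 on the plus strand. The RefSeq promoter windows (GRCm38.p6, 250 bases before to 50 after the annotated start) of an embryonic beta-type, an embryonic alpha-type and an adult-type beta globin and of Alas2 are shown because these genes set the cells apart and are read by the same erythroid factors. The windows are chr7:103853158-103853457 on the minus strand for Hbb-y, chr11:32276350-32276649 on the plus strand for Hba-x, chr7:103813874-103814173 on the minus strand for Hbb-bt and chrX:150547167-150547466 on the plus strand for Alas2. Capitals mark the Klf1-type motif CACCC, the GATA motif GATAA and the promoter box CCAAT, each on either strand.
Hbb-y: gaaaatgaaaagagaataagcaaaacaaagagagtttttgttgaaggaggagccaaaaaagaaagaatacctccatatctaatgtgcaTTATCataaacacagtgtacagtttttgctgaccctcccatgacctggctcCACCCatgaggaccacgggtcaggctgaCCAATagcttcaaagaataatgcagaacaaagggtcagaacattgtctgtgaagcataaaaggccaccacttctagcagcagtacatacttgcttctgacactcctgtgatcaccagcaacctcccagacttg
Hba-x: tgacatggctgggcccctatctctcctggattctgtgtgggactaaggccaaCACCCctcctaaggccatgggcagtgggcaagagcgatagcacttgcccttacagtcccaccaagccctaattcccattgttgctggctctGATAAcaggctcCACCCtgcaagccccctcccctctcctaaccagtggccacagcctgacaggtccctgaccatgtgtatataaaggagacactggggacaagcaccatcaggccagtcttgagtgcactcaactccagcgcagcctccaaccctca
Hbb-bt: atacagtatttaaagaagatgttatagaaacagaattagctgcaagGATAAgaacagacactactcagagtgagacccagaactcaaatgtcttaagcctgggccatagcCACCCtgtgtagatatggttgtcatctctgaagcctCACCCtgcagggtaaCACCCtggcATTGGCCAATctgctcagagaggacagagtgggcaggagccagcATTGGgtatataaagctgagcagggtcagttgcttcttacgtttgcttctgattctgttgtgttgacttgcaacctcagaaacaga
Alas2: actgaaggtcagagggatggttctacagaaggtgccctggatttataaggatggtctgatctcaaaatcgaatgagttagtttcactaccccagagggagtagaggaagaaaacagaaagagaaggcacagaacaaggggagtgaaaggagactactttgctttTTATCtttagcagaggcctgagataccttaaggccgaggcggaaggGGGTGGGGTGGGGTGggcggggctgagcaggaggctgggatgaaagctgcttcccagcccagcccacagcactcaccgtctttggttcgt
The Hbb-y window held CACCC 111 bases, GATAA 162 bases and CCAAT 83 bases before the start. The Hba-x window held CACCC 198 and 95 bases before it and GATAA 107 bases before it, with no CCAAT. In the Hbb-bt window CACCC stood at 140, 104 and 89 bases, GATAA at 204 bases and CCAAT at 75, 80 and 36 bases before the start. In the Alas2 window CACCC stood on the opposite strand at 40, 35 and 30 bases and GATAA at 86 bases before the start. Such short motifs are common: among 32851 promoter windows of the same length 57.5% held CACCC, 25.4% GATAA, 37.4% CCAAT and 4.84% all of them. The matches describe the letters and do not show binding.

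Hbb-y separated the yolk sac cells into groups far apart. The members just inside the limit had 31604, 40649, 48321, 48503 and 62355 CPM of Hbb-y, and the cells just outside it 10152, 9039, 1515 and 1180 CPM. The pair at 10152 and 9039 CPM had 13.8% and 13.1% of their UMIs in globins, Hbb-y included, and were shallow cells with 8668 and 8297 UMIs. Members ranged from 31604 to 207032 CPM with a median of 141835 CPM, against a median of 165 CPM and a 90th percentile of 315 CPM in the 623 other yolk sac cells. Barcodes that hold too few UMIs for a cell carried on average 54.2 UMIs, of which 3.15% were globin. That free RNA would add 29.9 CPM of Hbb-y to a cell of median depth, which is less than the median of the other cells. The source of the rest was not tested, and no expression was read from it.

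**Figure D1:**
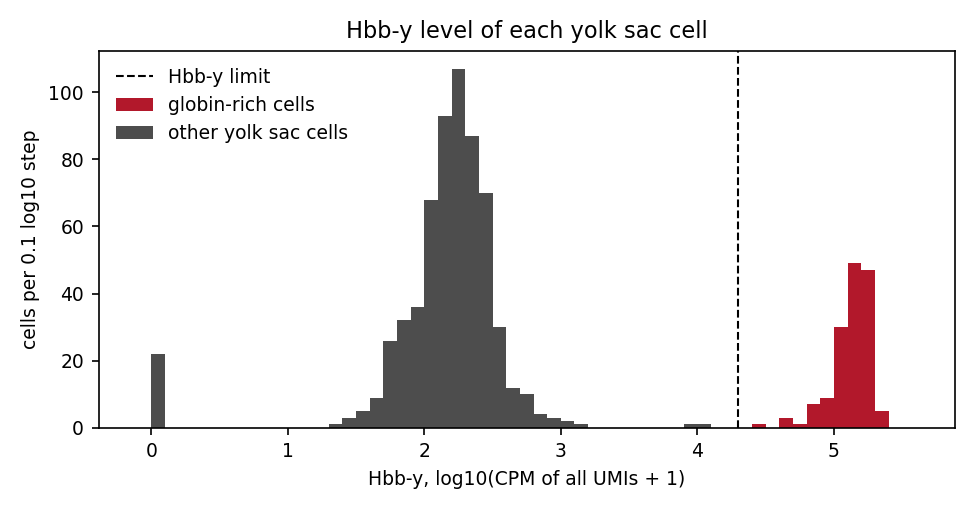
Number of yolk sac cells (vertical axis) at each level of Hbb-y, as log10 of CPM of all UMIs plus 1 (horizontal axis), with the limit of 20000 CPM as a dashed line. The 152 globin-rich cells lie between 31604 and 207032 CPM, while the 623 other cells have a median of 165 CPM.

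Markers that the rule did not name are described next. Alas2, the erythroid enzyme that opens heme synthesis, was seen in 100% of members (lowest cell 234, median 1238, highest 3113 CPM, with globin UMIs left out of the totals), against 19.05% of the Klf1 cells defined below and 4.49% of the other cells. Hbb-bh1 ran from 29538 to 97284 CPM and Hba-x from 23244 to 121212 CPM of all UMIs, so no member lacked either. In the other cells the medians of Hbb-bh1 and Hba-x were 83.0 and 50.5 CPM, with the highest cells at 54357 and 54338 CPM. Alas2, Hbb-bh1 and Hba-x were thus present in every member. They are markers of the label itself, chosen with earlier results of these data known, so their presence is a description and no independent check. Markers of other yolk sac cells were low for most lists: the 10 macrophage markers summed to 13 UMIs over all members, the 8 granulocyte and mast markers to 23, the 7 smooth muscle markers to 35, the 8 hematopoietic progenitor markers to 67, the 8 extraembryonic endoderm markers to 88 and the 10 mesenchymal and mesothelial markers to 104. The 10 megakaryocyte markers summed to 210 UMIs, the most of these lists, with a median of 45.8 CPM in members and 45.9 CPM in other cells. Of these 119 were of the integrin Itgb3 and 64 of its partner Itga2b, while the platelet glycoprotein genes Gp1ba and Gp1bb had 0 UMIs. Cdh5, which defines endothelium, had 0 UMIs, and Csf1r and C1qa, which define macrophages, had 1 UMI each. The endothelial list summed to 185 UMIs, of which 162 were Egfl7, also seen in 63.2% of members.

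A pair of members held the most UMIs of markers of other cell types and is given here before the comparisons. The member with the lowest globin share (12.0%) held 92154 UMIs, 47 UMIs of other-type markers, 9 of the myeloid factor Spi1 and 10 of the progenitor antigen Cd34. The member with the most UMIs, 114332, held 22 such marker UMIs and 5 of Spi1. A median member held 4 UMIs of these markers and a median other cell 113. Scrublet, which scores doublets from simulated pairs, marked 2 of the 775 cells (0.258%), 1 of them a member, and none was removed. The source of the marker RNA in the pair was not tested. The pair and the marked cells are called doublet suspects below, and where they decide a value it is also given without them.

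Globin RNA took 12.0% to 43.6% of the UMIs of a member, with a median of 31.1% and an interquartile range of 27.8% to 34.4%. Over all members Hbb-y made up 138008 CPM of all UMIs, Hbb-bh1 65469 CPM and Hba-x 58066 CPM. The adult-type alpha pair Hba-a1 and Hba-a2 together reached 49006 CPM, close to the embryonic alpha globin, whereas the adult-type beta pair Hbb-bs and Hbb-bt reached only 2843 CPM. These are UMI levels, with no correction for how well each transcript is captured. Adult-type genes thus made up 45.8% of the alpha-type UMIs (31.5% to 63.3% in single members) and 1.38% of the beta-type UMIs (0% to 11.9%). Alpha-type and beta-type UMIs were unequal, with alpha-type genes at 34.2% of all globin UMIs. Of the minor genes, the theta-type globin Hbq1b had 76.4 CPM and was seen in 135 members, and Hbb-bh2 had 9.18 CPM from 51 UMIs in 37 members. Hbb-bh2 had 0 UMIs in all other yolk sac cells.

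Within the embryonic beta pair, Hbb-y made up 67.8% of the Hbb-y and Hbb-bh1 UMIs. Single members ran from 33.4% to 77.8%, and 5 of 152 held more Hbb-bh1 than Hbb-y. Members with the more Hbb-y-weighted pair also had more adult-type RNA among their alpha globins (Pearson r = 0.47, Spearman rho = 0.43 over 152 cells of 1 library). Both fractions are computed from globin UMIs of the same cells, so the relation is given as a description.

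The adult-type pairs behaved differently from each other. The copies within each pair are near-identical in sequence, so the counting may have split their reads unevenly, and the split is uncertain. Among the 118 members with at least 20 UMIs of Hbb-bs and Hbb-bt, 24 had at least 90% of them as Hbb-bt and 27 had at most 10%. Members of either extreme thus stood beside members with both genes. The Hba-a1 share of the alpha pair ran only from 59.0% to 84.7% over all 152 members, and 0 members reached either extreme. Of the 152 members, 5 supplied 33.9% of all Hbb-bt UMIs, so the level of this gene rests on few cells.

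**Figure D2:**
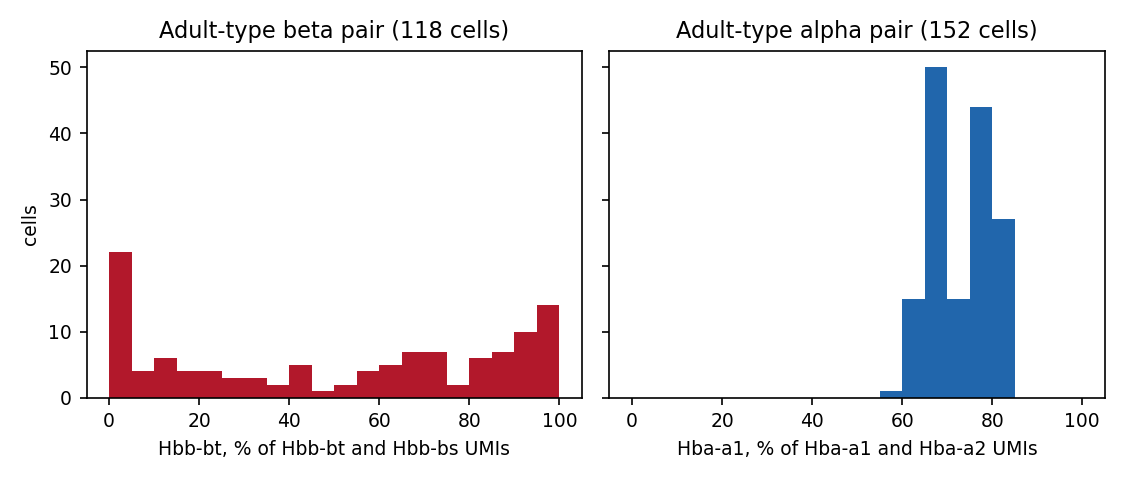
Histograms of the share of Hbb-bt in the adult-type beta pair (left, 118 globin-rich cells with at least 20 UMIs of the pair) and of Hba-a1 in the adult-type alpha pair (right, 152 cells), in percent of the pair's UMIs on the horizontal axes and cells on the vertical axis. The beta shares fill the whole scale with 24 cells at 90% or more and 27 at 10% or less, while the alpha shares lie between 59.0% and 84.7%.

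For all other genes the globin UMIs were left out of the totals, since they would lower every other gene in the members. Members were set against 2 groups: 42 other yolk sac cells with at least 3 UMIs of the erythroid factor Klf1 (Klf1 cells), the most like them, and all 623 other yolk sac cells, which include the Klf1 cells. Cells chosen by a globin differ from the rest by choice, so these ratios describe the members. A gene was called higher at a ratio of at least 2 and lower at a ratio of at most 0.5, when it had at least 30 UMIs in both groups together. Against the Klf1 cells 626 genes were higher (8.66% of 7231) and 1128 lower (15.6%). With globin kept in the totals these counts were 379 higher and 2599 lower. Against all other cells 561 genes were higher (4.82% of 11651) and 4848 lower (41.6%), with a median log2 ratio over all genes of -0.67. The counts of gene lists below are to be read against these shares of all genes in the same comparison. Ribosomal protein genes took a median of 35.4% of globin-free UMIs in members, 31.0% in Klf1 cells and 27.2% in the other cells. Mitochondrial genes took a median of 2.76%, 1.60% and 1.87%. At 2000 globin-free UMIs a cell, members showed a median of 877.5 genes, Klf1 cells 983.5 and other cells 1028. The part of these shifts in the counts of lower genes was not tested.

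Most heme synthesis genes were higher in members. Of the 13 genes of this list with enough UMIs 11 were higher and 1 lower in members than in the other cells, with a median log2 ratio of 3.68, and likewise 11 higher and 1 lower against the Klf1 cells, with a median of 2.32. Alas2 stood at 1266 CPM in members, 5.58 in Klf1 cells and 1.93 in other cells, a ratio of 655 to the other cells (472 to 936). Its ubiquitous counterpart Alas1 was the gene that went the other way, at 2.36, 11.7 and 16.4 CPM. The enzymes that follow were higher by smaller ratios. Cpox, which acts between the cytosol and mitochondria, had 1294 CPM in members, 308 in Klf1 cells and 75.9 in other cells, and Fech, which inserts the iron, 418, 49.7 and 19.5 CPM. Alad had 829.9, 200.3 and 64.6 CPM and Urod 618, 124 and 49.9 CPM. Tmem14c, a mitochondrial protein needed for porphyrin import, was abundant at 2885, 973 and 391 CPM. Clpx, a mitochondrial unfoldase that acts on Alas2, was the gene that met neither limit, at 38.3, 33.0 and 33.0 CPM.

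Of 18 iron genes 8 were higher and 4 lower in members than in other cells, and of 16 genes 6 were higher and 1 lower against the Klf1 cells. Slc25a37, the mitoferrin that carries iron into mitochondria, stood at 1019 CPM in members (lowest cell 185, median 1050, highest 3231), 20.3 in Klf1 cells and 13.1 in other cells. Its paralog Slc25a28, used by other tissues, was lower, at 6.30, 12.7 and 13.0 CPM. Tfrc, the transferrin receptor, had 282, 29.9 and 19.3 CPM, and the ferritin heavy chain Fth1 10274, 1824 and 1563 CPM. Glrx5, which serves iron-sulfur clusters, had 1684, 600.3 and 296 CPM. Trf, the plasma iron carrier, had 2 UMIs in members (0.525 CPM), against 1.52 CPM in Klf1 cells and 54.2 CPM in other cells. Of 6 genes of heme breakdown and export 2 were higher and 1 lower than in other cells, and of 5 genes 2 were higher and 0 lower than in Klf1 cells. Hmox1, the inducible heme oxygenase, had 1.05, 10.1 and 71.6 CPM, while the biliverdin reductase Blvrb had 1633, 289.5 and 54.1 CPM. The heme and porphyrin exporter Abcg2 had 333, 60.8 and 58.3 CPM.

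The red cell membrane and its skeleton were another marked group. Of 16 genes 9 were higher and 5 lower in members than in the other cells, and of 15 genes 9 were higher and 3 lower than in the Klf1 cells. Slc4a1, the band 3 anion exchanger, stood at 326 CPM in members, 1.01 in Klf1 cells (2 UMIs) and 0.698 in other cells. The beta spectrin Sptb had 77.9 CPM in members, 3.55 in Klf1 cells and 0.698 in other cells. Epb42, which ties band 3 to the skeleton, had 85.2, 1.01 and 0.269 CPM, and the ankyrin Ank1 50.4, 9.13 and 1.34 CPM. Slc4a1 was seen in 98.0% of members, 4.76% of Klf1 cells and 2.09% of other cells.

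Surface antigens were higher as a group, with 14 of 18 genes higher and 3 lower than in other cells and 13 of 16 higher and 2 lower than in Klf1 cells. The Rhesus protein Rhd had 178 CPM in members, 6.59 in Klf1 cells and 1.29 in other cells, the tetraspanin Tspan33 234, 7.10 and 2.47 CPM and Ermap, the Scianna antigen, 216, 38.5 and 5.10 CPM. Lower were Cd47, a signal that restrains phagocytosis, at 38.8, 180.0 and 230.4 CPM, and the adhesion receptor Cd44, with 3 UMIs in members (0.787 CPM) against 39.0 and 31.0 CPM. Among channels and carriers 9 of 16 genes were higher and 4 lower than in other cells, and 8 of 15 higher and 2 lower than in Klf1 cells. The water and glycerol channel Aqp3 had 135, 2.03 and 13.1 CPM, whereas Aqp1 and Aqp9 had 0 UMIs in members. Carbonic anhydrase also differed by isoform: Car2 had 3513, 608 and 196 CPM, while Car1, used by definitive red cells, had 2 UMIs in members (0.525 CPM), against 113 CPM in Klf1 cells and 12.2 CPM in other cells.

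**Figure D3:**
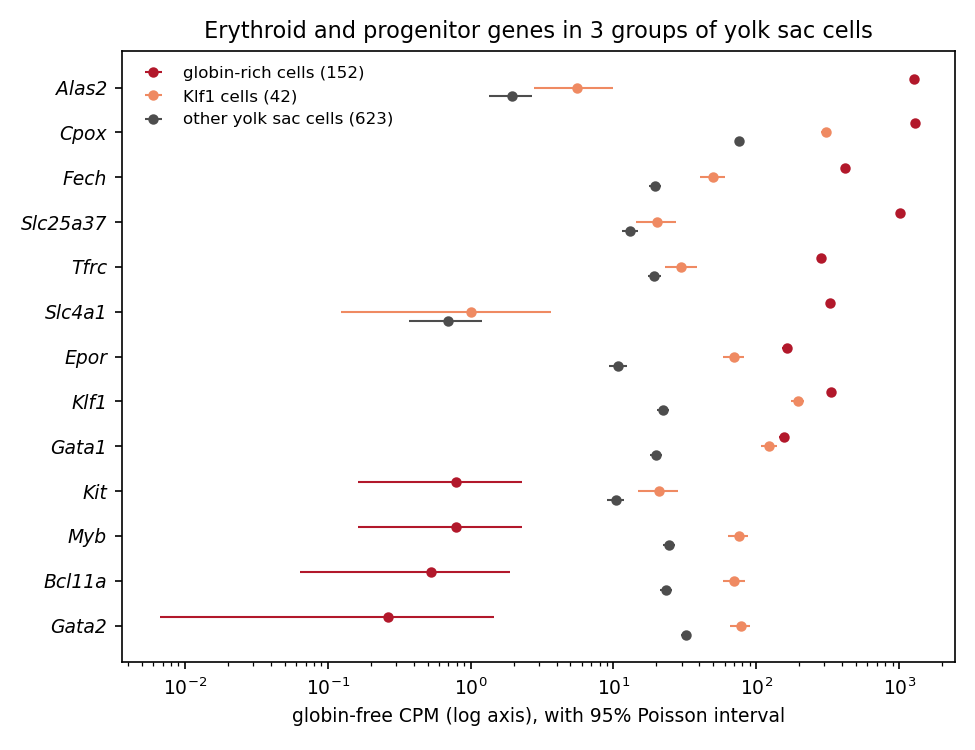
Levels of 13 genes (rows) as globin-free CPM on a log axis with 95% Poisson intervals, for 152 globin-rich cells, 42 Klf1 cells and 623 other yolk sac cells. Heme, iron and membrane genes such as Alas2 (1266, 5.58 and 1.93 CPM) lie furthest right in the globin-rich cells, and Kit, Myb, Bcl11a and Gata2 furthest left.

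The transcription factors shared with the Klf1 cells differed less than the genes above. Of 21 erythroid factors 10 were higher and 3 lower in members than in other cells, but of 20 only 3 were higher and 4 lower than in the Klf1 cells. Klf1 itself stood at 334 CPM in members, 195 in Klf1 cells, which were chosen for it, and 22.2 in other cells. Gata1 had 156, 123 and 19.9 CPM, a ratio of 1.26 to the Klf1 cells (1.09 to 1.47), and Tal1 86.6, 87.7 and 25.2 CPM, a ratio of 0.987 (0.819 to 1.19). Klf3, a repressor that Klf1 induces, had 97.1, 9.13 and 18.1 CPM and E2f2, which regulates terminal erythroid divisions, 24.1, 3.55 and 3.33 CPM. Lmo2, the bridging protein of the Tal1 and Gata1 complex, was lower, at 98.9, 497 and 203 CPM.

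Most genes of the definitive and globin-switching list, and all tested progenitor and other-lineage factors, were lower in members. Over all genes 41.6% were lower than in other cells and 15.6% lower than in Klf1 cells. Of 13 genes of the definitive and globin-switching list 0 were higher and 10 lower in members than in other cells. Of 10 genes 0 were higher and 8 lower than in Klf1 cells. The list is mixed and also holds genes of embryonic growth such as Igf2bp1, so these counts are not of definitive factors alone. Myb, required for definitive but not primitive red cells, had 3 UMIs in members (0.787 CPM), against 75.04 CPM in Klf1 cells and 24.6 CPM in other cells. Bcl11a, a repressor of embryonic globins, had 2 UMIs in members (0.525 CPM), against 70.0 and 23.4 CPM. Sox6, which acts with it, had 1 UMI, and the RNA-binding Igf2bp2 had 0 UMIs, against 19.3 and 42.1 CPM. All 12 tested progenitor and other-lineage factors were lower than in other cells and all 7 lower than in Klf1 cells. Gata2, the progenitor counterpart of Gata1, had 1 UMI in members (0.262 CPM), against 77.6 CPM in Klf1 cells and 32.2 CPM in other cells. Of the 17 UMIs of Spi1, 9 and 5 were in the pair of members with other-type markers.

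The Klf1 cells differed from members by more than globin. They were deep, with a median of 49941 UMIs against 33704 in members, and carried Gata1, Klf1 and Tal1 beside Myb, Bcl11a, Gata2 and Car1. Their pooled globin level was 1391 CPM of all UMIs, with Hbb-bh1 at 754 CPM above Hbb-y at 259 CPM. However, 5 of the 42 cells supplied 64.7% of the Hbb-bh1 UMIs, and the median cell had 139 CPM of Hbb-bh1 and 198 CPM of Hbb-y. Hbb-bt had 122 CPM and Hbb-bs 56.7 CPM in them, where free RNA would add 0.273 and 0.209 CPM to a cell of median depth. The adult-type beta pair thus made up a larger part of their pooled globin UMIs than in members. The totals are small, with 352 UMIs of the pair and 2747 of all globins, and 5 cells supplied 52.8% of the pair.

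Erythropoietin drives survival of erythroid precursors through its receptor and Jak2 and Stat5. Epor stood at 164 CPM in members, 69.5 in Klf1 cells and 10.7 in other cells, and Kit, the stem cell factor receptor of earlier cells, had 3 UMIs in members (0.787 CPM), against 20.8 and 10.4 CPM. Of 16 genes of the pathway list 4 were higher and 5 lower than in other cells, and of 14 genes 7 were higher and 3 lower than in Klf1 cells. Trib3, a pseudokinase induced by stress and hormone signals, had 198, 3.55 and 2.36 CPM. Antioxidant genes were higher for 8 of 18 and lower for 1 against other cells, led in level by the peroxiredoxin Prdx2 at 4708, 719 and 499.7 CPM. Bpgm, which makes the 2,3-bisphosphoglycerate that adult hemoglobin binds, had 360.1, 16.2 and 14.9 CPM. The metallothioneins Mt1 and Mt2, which bind zinc and copper, stood at 7383 and 5411 CPM in members, 812 and 155 in Klf1 cells and 603 and 277 in other cells. The steroid enzyme gene Hsd3b6 had 64.5 CPM in members and 0 UMIs in both other groups, at least 42.4-fold higher than the Klf1 cells and at least 400.5-fold higher than the other cells (floor of 3 counts per group).

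The members still carried cell cycle RNA. Of 25 S phase genes 0 were higher and 5 lower than in other cells, where 41.6% of all genes were lower. Of 25 genes of G2 and mitosis 1 was higher and 2 lower. Against Klf1 cells 0 of 25 S phase genes were higher and 6 lower, with a median log2 ratio of -0.77 against -0.21 over all genes. For G2 and mitosis 0 of 25 were higher and 2 lower than in Klf1 cells, with a median of 0.09. Mki67, a marker of cycling cells, had 156 CPM in members, 83.7 in Klf1 cells and 61.9 in other cells and was seen in 92.1% of members, while Cdk1, the mitotic kinase, had 149, 303 and 304 CPM. Of 12 genes of the cell cycle inhibitor list 3 were higher and 5 lower than in other cells. Against Klf1 cells 4 of 6 were higher and 1 lower, with a median log2 ratio of 1.67 against -0.21 over all genes. That list also holds Ccnd3, the D cyclin of erythroid precursors, which had 600.1, 214 and 254 CPM. Of 16 glycolysis genes 1 was higher and 7 lower than in other cells, shares near those of all genes. Against Klf1 cells 1 of 15 was higher and 8 lower, with a median log2 ratio of -1.17 against -0.21 over all genes. Pkm had 404, 934 and 994 CPM, whereas its red cell paralog Pklr had 64.8, 2.03 and 0.967 CPM. Of the organelle clearance and ubiquitin list 6 of 25 genes were higher and 4 lower than in other cells. Against Klf1 cells 10 of 24 were higher and 1 lower. Trim10, an erythroid ubiquitin ligase, had 182, 3.55 and 0.591 CPM and Ube2l6, an ISG15-conjugating enzyme, 284, 4.56 and 4.30 CPM. Of the imprinted growth list 1 of 11 genes was higher and 9 lower than in other cells, while against Klf1 cells 4 of 6 were higher and 0 lower. The imprinted RNA H19 stood at 653 CPM in members, 10.6 in Klf1 cells and 734 in other cells, while the imprinted growth factor Igf2, its neighbour, had 9.18, 4.06 and 248 CPM.

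To describe how members differ among themselves, they were ordered by total globin share and divided into 4 bins of 38 cells. Their median globin shares were 25.5%, 29.3%, 33.0% and 37.5% from bin 1 to bin 4. Median depth rose along the order, at 26505, 31591, 34677 and 40254 UMIs with globin included. Globin-free medians were 19999, 22052.5, 23021 and 24729 UMIs. Over single cells depth with globin included was only weakly related to globin share (Pearson r = 0.07, Spearman rho = 0.18, n = 152). Ribosomal protein genes took medians of 33.7%, 34.6%, 36.1% and 36.8% of globin-free UMIs and mitochondrial genes 3.15%, 2.89%, 2.74% and 2.28%. At 2000 globin-free UMIs a cell the medians were 901.5, 887.5, 876 and 858.5 genes, 43 fewer in bin 4 than in bin 1. The part of depth and of these shares in the order below was not tested. The Ter119 sorting may also have changed which cells along this order were kept, which was not tested.

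Globin composition along this order was read gene by gene. Hbb-y made up 61.9%, 66.1%, 69.1% and 71.0% of the Hbb-y and Hbb-bh1 UMIs from bin 1 to bin 4. Hbb-y itself is the largest part of the total by which the cells were ordered. When they were ordered by globin share without Hbb-y, the same fraction was 69.1%, 66.4%, 66.4% and 69.3%. That order still holds Hbb-bh1, the other part of the fraction, so each order leans the fraction one way. Ordered by the adult-type share of alpha globin, which holds no beta-type gene, it was 63.6%, 68.8%, 69.0% and 70.1%. The adult-type part of the alpha globins was 43.0%, 45.0%, 46.5% and 47.2% along total globin share, against 45.8%, 45.1%, 45.3% and 46.5% in the order without Hbb-y. The adult-type part of the beta globins was 1.04%, 0.790%, 1.25% and 1.99%, and 0.783%, 0.961%, 1.30% and 2.02% in the order without Hbb-y. In pooled UMIs it was thus higher in bin 4 than in bin 1 in either order, though a few cells supplied much of it. Along total globin share, 5 cells held 57.7% of the pair's UMIs in bin 1 and 52.1% in bin 4. The median cell had 0.702%, 0.653%, 1.14% and 0.827% from bin 1 to bin 4, so the typical cell differed little between the outer bins.

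**Figure D4:**
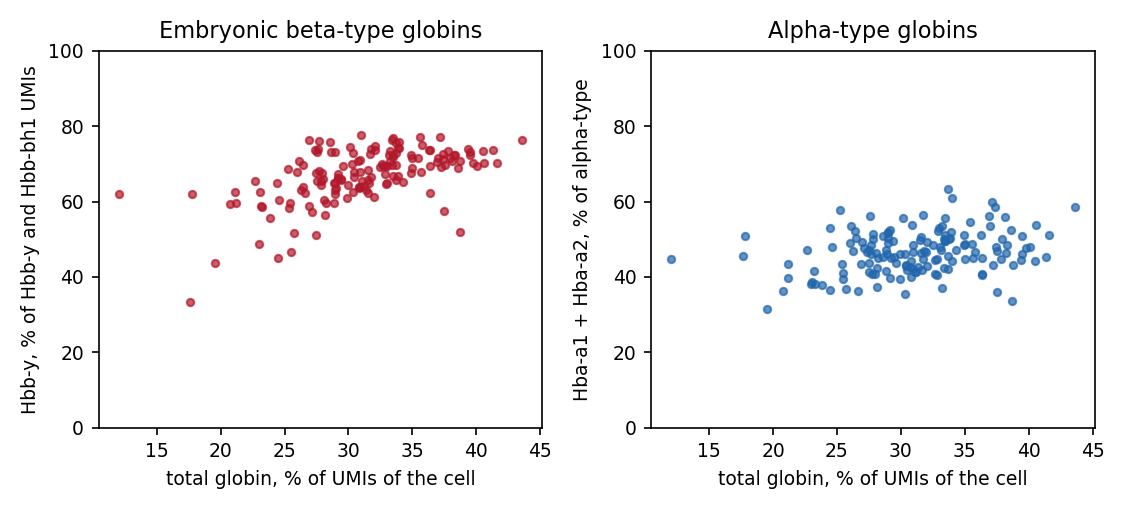
Each point is 1 of 152 globin-rich cells, with its total globin share in percent of UMIs on the horizontal axes. On the left the vertical axis gives Hbb-y in percent of Hbb-y and Hbb-bh1 UMIs (33.4% to 77.8%), on the right the adult-type genes in percent of alpha-type UMIs (31.5% to 63.3%), and cells of low globin share reach the lowest values on the left.

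Outside the globins few genes differed by 2-fold between the outer bins. In bin 4 against bin 1, 61 of 4689 genes were higher (1.3%) and 164 lower (3.5%), with a median log2 ratio of -0.12. With globin kept in the totals 18 were higher and 398 lower. Of 12 heme synthesis, 12 iron, 13 membrane, 13 channel and 18 antioxidant genes 0 were higher and 0 lower. Of 15 surface genes 0 were higher and 2 lower, of 18 erythroid factors 1 was higher and 1 lower, and of 4 erythropoietin pathway genes 1 was higher. Lists of this size are too short to tell such counts from the shares over all genes. Slc25a37 stood at 908, 1098, 1091 and 999.5 CPM from bin 1 to bin 4. Alas2, the opening enzyme of heme synthesis, stood at 912, 1173, 1387 and 1591 CPM, a ratio of 1.74 (1.61 to 1.89). Over single cells its level went with globin share (Pearson r = 0.60, Spearman rho = 0.59, n = 152 cells of 1 library). In the order without Hbb-y it was 1058, 1177, 1232 and 1536 CPM. Klf1 had 320, 345, 311 and 359 CPM and Gata1 156, 137, 172 and 155 CPM, without a trend.

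The metallothioneins were higher in bin 4. Mt1 stood at 3208, 6617, 7046 and 12628 CPM from bin 1 to bin 4, a ratio of 3.94 (3.79 to 4.09), and Mt2 at 2094, 4773, 5489 and 9274 CPM, a ratio of 4.43 (4.23 to 4.64). Both varied widely between cells, with Mt1 between 0 and 25157 CPM (interquartile range 2590 to 12863) and Mt2 between 0 and 23125 CPM. Their summed level went with globin share (Pearson r = 0.46, Spearman rho = 0.48) and showed -0.03 and -0.06 with depth, over the same 152 cells. In the order without Hbb-y Mt1 was 6547, 5682, 6081 and 10808 CPM and Mt2 4300, 4415, 4614 and 7914 CPM, so that only bin 4 stood apart and neither reached 2-fold. Several less abundant genes were also higher in bin 4. Trib3 had 109, 174, 217 and 292 CPM, Ddit3, a stress factor that induces it, 104, 195, 166 and 220 CPM and Atf4, which acts above both in the integrated stress response, 308, 415, 514 and 568 CPM, which did not reach 2-fold. Nudt4, an inositol phosphate phosphatase, had 504, 749, 985.5 and 1078 CPM and the mitochondrial carrier Ucp2 159, 226, 278 and 327 CPM. In the order without Hbb-y the log2 ratios of Trib3, Ddit3, Atf4 and Nudt4 were 0.57, 0.54, 0.19 and 0.54, and that of Ucp2 was 1.00.

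Several genes of metabolism and growth control were lower in the bin richest in globin. Pkm, the pyruvate kinase of proliferating cells, stood at 671, 408, 323 and 203 CPM from bin 1 to bin 4, a ratio of 0.302 (0.257 to 0.354), while its red cell paralog Pklr had 37.0, 62.5, 75.7 and 84.9 CPM, a ratio of 2.30 (1.55 to 3.46). Of the 13 glycolysis genes tested 1 was higher and 2 lower, the other being the phosphoglycerate mutase Pgam1 at 133, 87.8, 84.1 and 63.9 CPM. Pkm went against globin share over single cells (Pearson r = -0.51, Spearman rho = -0.47, n = 152). The ADP and ATP carrier Slc25a4 had 292, 150.3, 130.4 and 108 CPM, and Igf2bp1, an RNA-binding protein of embryonic growth, 63.2, 46.9, 30.5 and 19.97 CPM. Ccne1, the cyclin of S phase entry, had 80.7, 93.8, 55.7 and 32.0 CPM. It was 1 of 2 lower genes among 24 S phase genes, of which 0 were higher. Of 24 genes of G2 and mitosis 0 were higher and 0 lower. Cd47 had 61.3, 40.9, 29.4 and 23.0 CPM. In the order without Hbb-y Pkm was 526, 489, 363 and 270 CPM, and the log2 ratios of Slc25a4, Igf2bp1, Ccne1 and Cd47 were -0.98, -1.16, -0.58 and -1.33. These 5 genes kept their direction there, though Pkm, Slc25a4 and Ccne1 no longer reached 2-fold. Pgam1 and Pklr also kept their direction in that order, with log2 ratios of -0.58 and 0.75, under 2-fold. Without the doublet suspects the log2 ratios of Cd47, Pgam1, Pklr and Ddit3 were -0.89, -0.97, 0.97 and 0.89, under 2-fold.

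Some of the lower genes rested on few cells. Of the UMIs of Tmsb4x, an actin-binding peptide, 38.8% came from 5 members, and its log2 ratio of -1.56 was -0.43 without the doublet suspects. H1f0, a linker histone of resting cells, drew 54.4% of its UMIs from 5 members, and its log2 ratio of -2.51 was -1.01 without the doublet suspects. Without the suspects 56 genes were higher and 113 lower, of which 39 and 98 were among the 61 and 164. In the order without Hbb-y 41 were higher and 127 lower, of which 21 and 64 were among them, so the list of genes that differ along globin share depends on how the members are ordered.

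**Figure D5:**
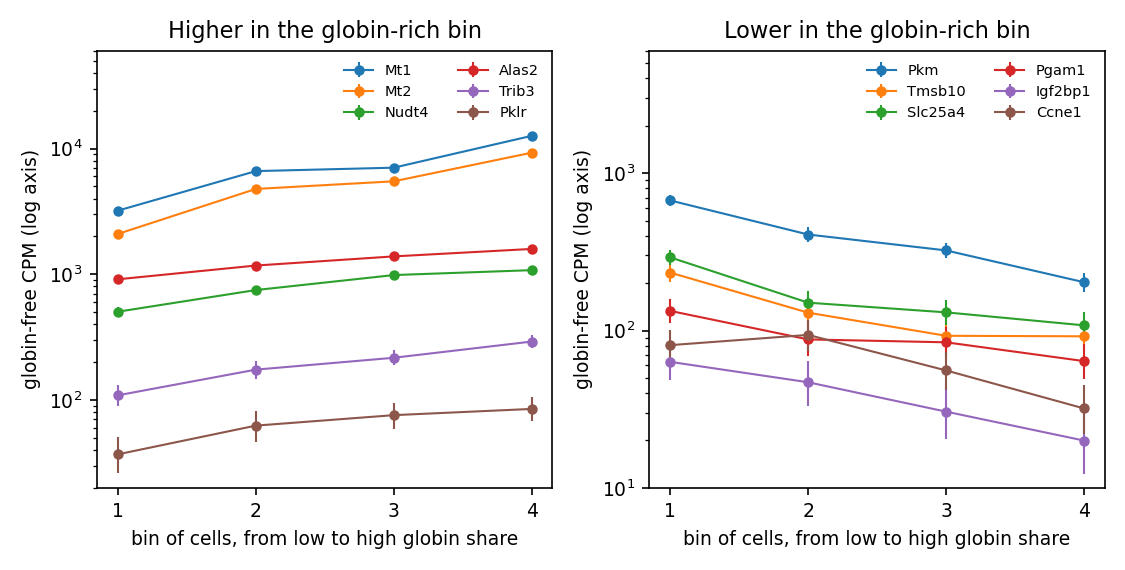
Levels of 12 genes as globin-free CPM on log axes with 95% Poisson intervals, in 4 bins of 38 globin-rich cells from low to high total globin share. On the left Mt1 runs from 3208 to 12628 CPM and Alas2 from 912 to 1591 CPM, and on the right Pkm runs from 671 to 203 CPM.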

How the data were processed

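Droplet single-cell RNA sequencing (10x Genomics Chromium, HiSeq2500, per the labels' protocols) gave 1 yolk sac (YS) and 1 embryoid body (EB) library. The authors deposited unfiltered matrices of UMI counts, with 33456 genes by 737280 barcodes in each. The genome build was mm10, per the submitters' processing notes. The aligner, the counting software and the read filters were not given in the sources used here. The YS library held 30294678 UMIs, 79.8% of them in cells (median 28461 UMIs and 4471 genes).

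The minimum of 6537 UMIs is 10% of a high percentile (99) of the totals of the top 3000 barcodes. In YS 801 barcodes passed it and 26 of these exceeded the mitochondrial limit. No cell was removed as a doublet. The libraries shared 2 cell barcodes, 0 of them members. Counts were summed over cells and scaled to 1000000 globin-free UMIs. Intervals were 95% exact Poisson, Clopper-Pearson and conditional binomial. Where a group had 0 UMIs, the bound used a floor of 3 counts per group. Empty droplets were ranks 10001 to 50000 by total. Of 377 listed genes 3 were absent from the files and 5 were matched through older symbols. The genes named are those of the lists, and for each comparison the 15 most changed each way that reached 100 CPM in the higher group. The members and the lists were chosen with earlier results of these data known. Counts were also simulated as independent Poisson draws, as the intervals assume. There 95.7% (11653 genes, against other cells), 95.8% (7209, against Klf1 cells) and 96.0% (4670, between bins) of intervals held the true ratio of unchanged genes. This checks the calculation only, since spread between cells was not simulated. Alternatives covered the cell limits, doublets, totals, count minimum, free RNA, order and number of bins, and the choice of Klf1 cells. Python 3.11.15, numpy 2.4.6, scipy 1.17.1, pandas 2.3.3, scanpy 1.11.5 (Scrublet) and matplotlib 3.10.9 were used. Gene coordinates are from GENCODE M21 and promoters from RefSeq GRCm38.p6.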

Additional observations from a re-analysis of the deposited data

Results flagged for a closer look

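Barcodes outside the cell limits also carried the globin signal. Of 886 YS barcodes with 500 UMIs up to the minimum, 16 passed the Hbb-y limit of 20000 CPM. They held 555 to 6071 UMIs and 11.5% to 44.0% globin (median 24.4%), and 0 of 3008 such EB barcodes passed. Of the 26 YS barcodes over the mitochondrial limit, 4 passed, with 6592 to 10259 UMIs and 12.0% to 20.2% globin, and 0 of 142 in EB. Both were data that the comparisons do not use, with the signal above its level in EB.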

How the results depend on the processing

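The number of members ran from 137 to 156 over the limits tried, and the median globin share was 31.5% at a mitochondrial limit of 5%, 30.9% at 20%, 31.6% at a doubled UMI minimum, 31.1% and 31.4% at Hbb-y limits of 10000 and 50000 CPM, and 31.3% without doublet suspects. With globin kept in the totals 346 genes were higher than in other cells, 379 higher and 2599 lower than in Klf1 cells, and 18 higher and 398 lower in bin 4 than in bin 1. That scaling moved the median log2 ratios to -1.22, -0.75 and -0.40. At a minimum of 10 UMIs 1764 genes were lower than in Klf1 cells and 250.0 and 625 were higher and lower in bin 4. At 100 UMIs 336 were higher and 514 lower than in Klf1 cells, and 16 and 17 in bin 4, where fewer genes could be tested. With cells weighted equally 98 genes were higher in bin 4. Bin 4 showed 43 fewer genes a cell than bin 1 at 2000 UMIs, 64.5 fewer at 4000 and 210.0 more without thinning, when depth differed. Ordered by the adult-type share of alpha globin, an order chosen after seeing the data, 66 genes were higher and 49 lower, of which 6 and 13 were among those of the total globin order. Of the named genes past 2-fold against other cells 243 to 264 kept 2-fold under the alternatives run, and 0 changed sign. Between bins 10 of 30 kept it in the order without Hbb-y and 3 of 28 in the adult-type alpha order, where 4 changed sign. Changes of sign were few. In the order without Hbb-y the log2 ratios were 0.013 for Cd24a, -0.93 for Hist1h1e and 0.60 for H1f0. Against cells with 1 or more Klf1 UMIs they were -1.34 for Igf2, -1.27 for Peg3 and -1.35 for Lum, and against Gata1 cells -0.71 for Itgb3. In the adult-type alpha order they were 0.61 for Cbfa2t3, 0.37 for Gabarapl1, 0.029 for Itgb3 and -0.13 for Ucp2. The cause was not tested. No paired analysis was possible because each library is a single sample. Depth limits genes under about 30 UMIs, and no value here covers variation between embryos.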

Other observations

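Members and other yolk sac cells came from embryos of both sexes in similar parts. Of the 152 members 69 held UMIs of Xist and of no Y-linked gene tested, 56 of Y-linked genes only, 2 of both and 25 of neither. Of the 623 other cells the counts were 278, 272, 2 and 71.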
